A study of Rattus norvegicus with 24 samples.

Results

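The genes described here are 42 genes that fibroblasts and their matrix are known for: collagens, small proteoglycans, matrix glycoproteins, elastic fibre proteins, matrix enzymes with their inhibitors, and 3 surface markers. They were picked by symbol, with the brightest probe standing for a gene that has several, and all 42 were found among the 26276 gene names on the arrays. Each of them passed the filter on dim probes, which left 20311 genes in the tests. On all 24 arrays 41 of the members were well above background, and Tnc was so on 14.

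Fibroblasts build the connective tissue that wraps the thyroid gland and runs between its follicles. They secrete fibrillar collagens, which other proteins trim, space and cross-link into fibres, and they lay down elastic fibres by coating an elastin core with fibrillins, fibulins and microfibril-associated proteins. Glands taken from the neck can carry different amounts of capsule, muscle, oesophagus or cartilage, and matrix genes are active in several of these tissues.

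RNA came from thyroid glands of RccHan Wistar rat pups, killed at postnatal day 35 ± 3. Treated animals received acrylamide, 3 mg/kg bw/day, in what they drank, starting with the dams at gestational day 6 and going on in the pups. Control animals drank tap water. There were 6 groups of 4 arrays, a control and an acrylamide group for each of 3 strata: females sampled at 10 PM, males sampled at 10 PM, and females sampled at 10 AM, called night and morning here. The labels number the replicates without tying them to animals or litters, so the p-values given here reflect array-to-array spread, which may be technical.

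Some arrays stood apart in the genes of other tissues. The summed thyroid follicular cell markers (mean log2 level of 12 genes) read -3.45 on acrylamide morning array 1, against 1.89 to 2.35 on the morning controls, and Tg was down to -0.85 there. Oesophageal epithelium markers (9 genes) read 0.85 and 1.36 on acrylamide morning arrays 1 and 3, against -3.07 to -1.86 on the morning controls. T cell markers (8 genes) read 0.84 on acrylamide morning array 2, and parathyroid markers (3 genes) read -1.74 on acrylamide male array 4, against 3.46 to 4.22 on the male controls. Skeletal muscle markers (14 genes) read 3.84 on acrylamide female night array 2 and 1.91 on acrylamide male array 2, against 6.72 to 7.90 on the 8 night controls. At night each sex had a slide of its own, with controls in array row 1 and acrylamide in row 2, so treatment and row cannot be told apart there. The morning arrays were scanned in another session with a signal ceiling of 65496 or 65497, and 303 to 583 spots reached it on each, against 0 on the night arrays.

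A level here is the log2 processed signal minus the array's own 75th percentile, so 0 is a fairly bright probe and each unit is a doubling. Levels were not set against each other between genes. The defining fibroblast genes were present on every array: the mean level of 9 of the members, Col1a1, Col1a2, Col3a1, Dcn, Lum, Dpt, Pdgfra, Pdgfrb and Thy1, lay between 2.02 and 2.93 on the 24 arrays. Because whole glands were measured, fewer fibroblasts and less RNA per fibroblast cannot be told apart.

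Upstream sequence is shown for 3 members that carry the results below: Tnc, which had the largest male and morning differences with acrylamide on the scale used here, and Fbln5 and Timp3, which had the smallest adjusted p-values between night and morning. The sequences are RefSeq's, on build GRCr8, where 25 of the 42 members have an entry. Each line gives the 250 bases before the annotated start, 5′ to 3′ on the gene's strand. Capitals mark the TATANA motif, the CCAAT box and the GC box (GGGCGG), each searched on both strands.
Tnc, chr5:82476132-82476381, minus strand: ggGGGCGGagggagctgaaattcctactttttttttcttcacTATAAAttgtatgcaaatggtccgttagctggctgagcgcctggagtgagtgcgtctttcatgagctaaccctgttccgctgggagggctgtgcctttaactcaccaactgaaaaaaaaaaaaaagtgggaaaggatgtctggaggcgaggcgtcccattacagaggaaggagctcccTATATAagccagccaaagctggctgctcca
Timp3, chr7:19459559-19459808, minus strand: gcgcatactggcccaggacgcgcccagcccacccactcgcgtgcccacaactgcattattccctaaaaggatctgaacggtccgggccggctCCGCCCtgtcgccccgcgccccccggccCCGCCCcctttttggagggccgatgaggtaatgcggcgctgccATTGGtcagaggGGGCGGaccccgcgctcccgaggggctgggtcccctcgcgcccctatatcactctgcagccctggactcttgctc
Fbln5, chr6:126742707-126742956, minus strand: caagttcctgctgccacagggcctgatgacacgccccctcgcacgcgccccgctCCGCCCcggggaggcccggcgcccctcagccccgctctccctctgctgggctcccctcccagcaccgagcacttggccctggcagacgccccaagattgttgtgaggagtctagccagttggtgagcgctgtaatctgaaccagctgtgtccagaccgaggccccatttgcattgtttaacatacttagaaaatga

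Tnc holds a TATANA match 30 bases before its start and another at 208. Timp3 holds 3 GGGCGG matches and 1 CCAAT match, and Fbln5 holds a single GGGCGG match 196 bases upstream. Over the 33469 upstream windows of the table, 24.2% hold TATANA, 34.0% CCAAT and 30.5% GGGCGG, and of the 26 windows that belong to members 5, 8 and 11 do. These are letter matches and describe the windows only.

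The members read lower with acrylamide in the females at night, mainly on 3 of the 4 arrays. The difference was below 0 for 38 of the 42 members, against 44.3% of all genes, and their median difference was -0.38 on the log2 scale, against 0.02 for all genes. No member passed the limma test across all genes (adjusted p under 0.05), nor did any gene of the 20311 (0%), and 6 members had an unadjusted p under 0.05, against 1.89% of genes. For 3 members, Ogn, Sparc and Col6a1, all 4 acrylamide arrays lay below all 4 controls, which held for 1.74% of genes. The margin was narrow for Sparc (highest acrylamide array 6.201, lowest control 6.224) and for Col6a1 (2.852 and 2.855). No member lay wholly above its controls, against 3.73% of genes. Of the 42 members, 32, 26 and 30 lay below the lowest control on acrylamide arrays 1, 2 and 3, and 7 did on array 4. The same count was 31 for control array 4 against the other 3 controls, so a control array also stood low. Smooth muscle and pericyte markers (10 genes) were lower too, at 0.29 to 0.45 against 0.49 to 0.64, and their part in the result was not tested. With muscle and fat markers as covariates the median was -0.24, with 34 members below 0.

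**Figure D1:**
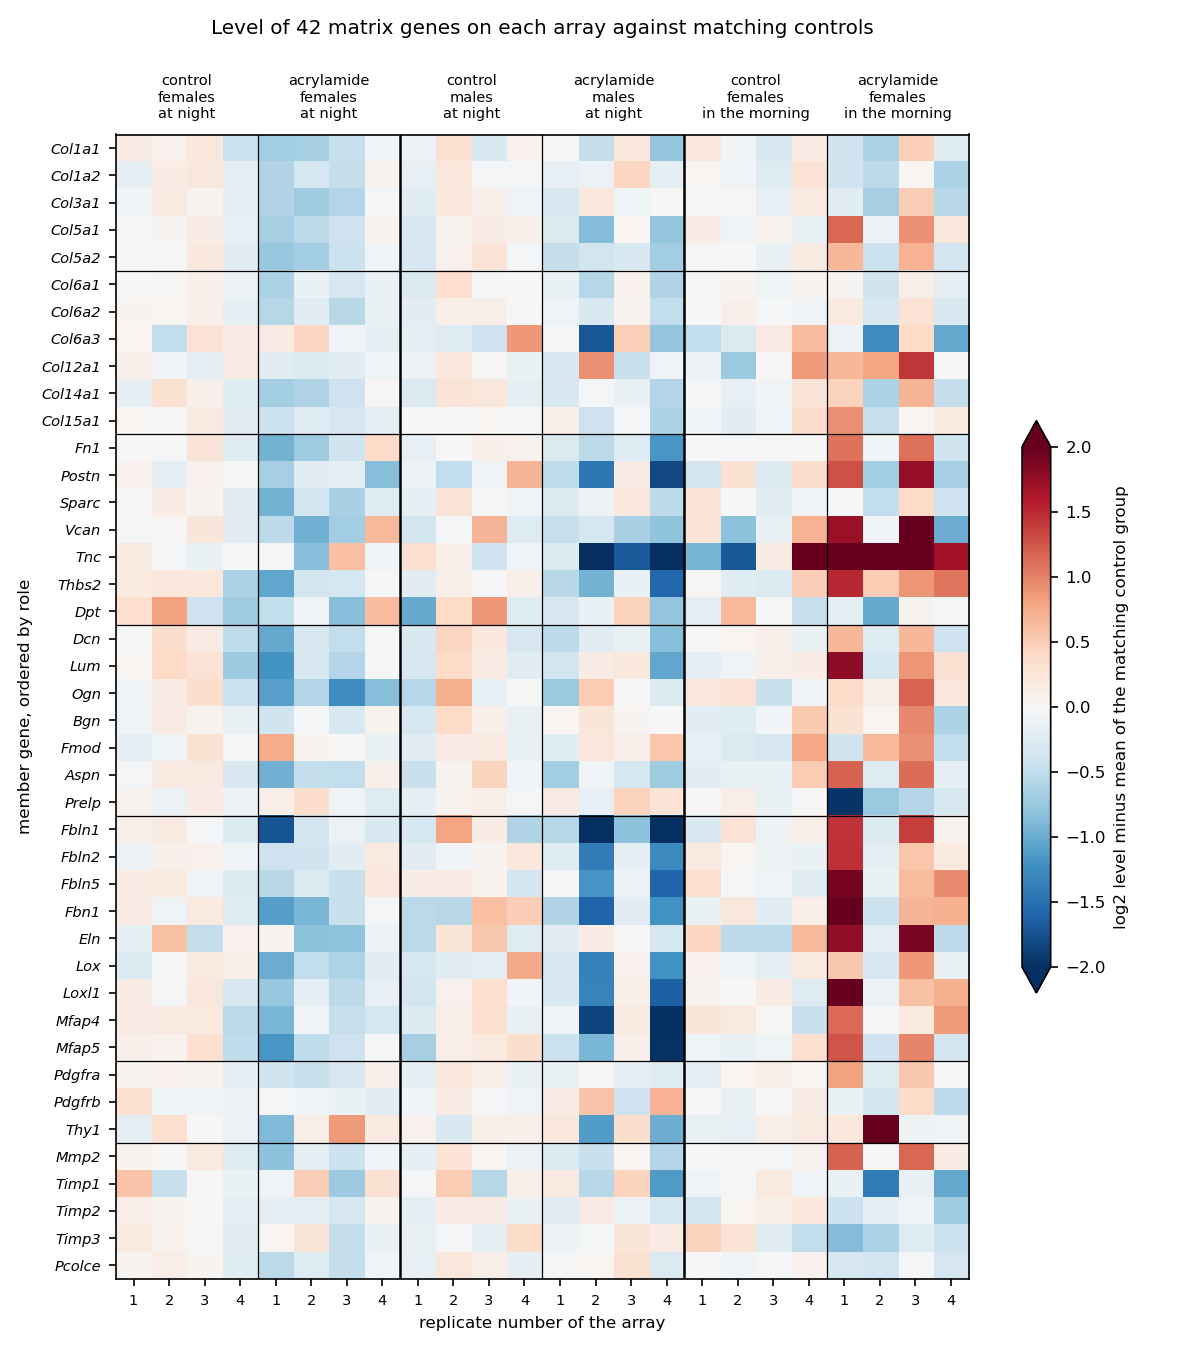
Log2 level of each of the 42 members (rows, ordered by role) on each of the 24 arrays (columns, by group and replicate number), minus the mean of the control group of the same sex and time; red is higher, blue lower, and colours end at 2 log2 units. In the females at night blue covers acrylamide arrays 1 to 3, in the males the deepest blue is on arrays 2 and 4, and in the morning red covers arrays 1 and 3.

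In the males at night the members again read lower with acrylamide, with the lowest median among elastic fibre genes. The difference was below 0 for 35 members, against 49.5% of all genes, with a median of -0.29 against 0.00 for all genes. No member and no gene (0%) passed the limma test, while 9 members had an unadjusted p under 0.05, against 13.6% of all genes. Fn1 was the single member whose groups did not overlap, on the low side, against 1.49% of genes, and none was on the high side, against 2.99%. The shortfall was uneven between arrays: 32 members on acrylamide array 4 and 21 on array 2 lay below every control, and 18 did on array 1 and 7 on array 3. Without arrays 2 and 4, which stand apart in muscle or parathyroid markers, the median was -0.11, and 30 members were still below 0. That subset was chosen after seeing the data. The arrays left out also had the lowest median deviations of the members from the controls, -0.36 and -0.74. A smaller shortfall without them thus followed from the choice. Other marker lists also separated the male groups. On the acrylamide arrays follicular cell markers were higher (2.30 to 2.73 against 1.99 to 2.12), macrophage markers (9 genes) lower (-0.77 to -0.04 against 0.02 to 0.40), and chondrocyte and tendon markers (7 genes) lower (-3.26 to -2.05 against -1.96 to -1.5). Their part in the result was not tested. With the deposited value table, which centres arrays on their median, the members' median was -0.12 and that of all genes 0.18.

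In the females in the morning the acrylamide arrays lay on both sides of the controls. Above every control lay 27 members on acrylamide array 1 and 30 on array 3, while 26 on array 2 and 20 on array 4 lay below every control. The difference was above 0 for 28 members and the median was 0.25, while 59.6% of all genes were below 0 and their median was -0.11. Of all genes 2.08% passed the limma test (0.423% higher, 1.65% lower), and no member did, with 10 members at an unadjusted p under 0.05 against 23.9% of genes. Thbs2 did not overlap on the high side (1.88% of genes), and Prelp and Timp1 did not on the low side (6.71% of genes). The 2 high arrays are those with high oesophageal markers, and the part of those markers in the result was not tested. Without these arrays, a subset chosen after seeing the data, the median was -0.30, with 29 members below 0. The 2 arrays left had median deviations of -0.30 and -0.27 from the controls, so the change of sign followed from the choice. Within slide 3 (2 acrylamide, 3 control arrays) the members' median was 0.16, and within slide 4 (2 acrylamide, 1 control array) it was -0.03. Single arrays decided the calls: 4 members passed without acrylamide array 2, 3 without acrylamide array 3, 3 without acrylamide array 4 and 1, Tnc, without control array 4.

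**Figure D2:**
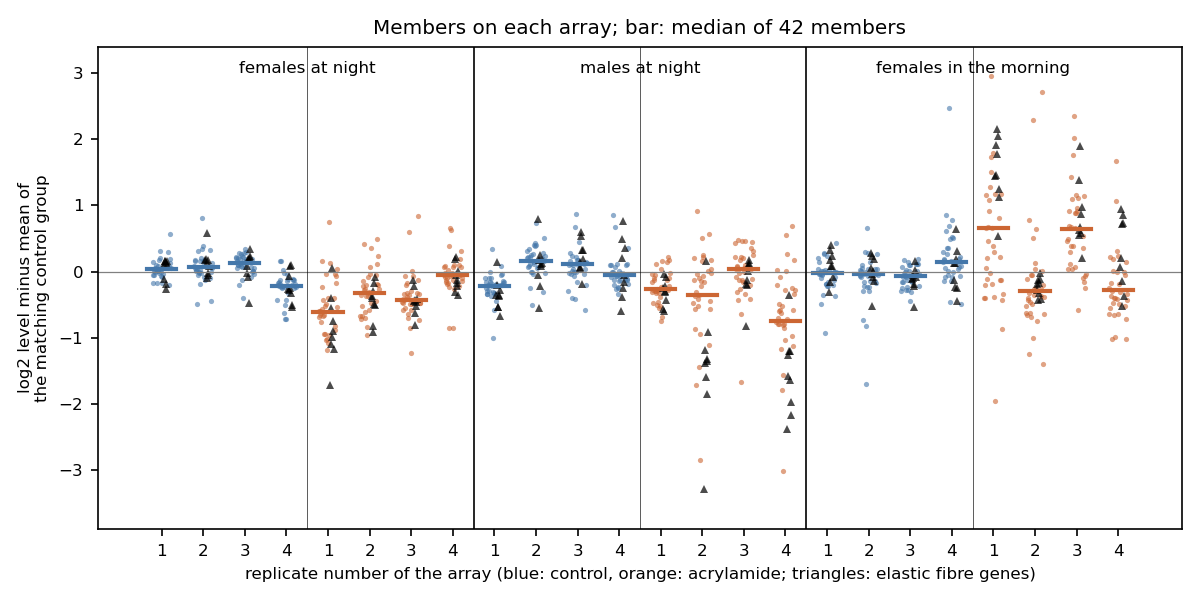
Deviation of every member from the mean of its matching controls (vertical axis, log2 units) on each array (horizontal axis, replicate numbers); blue points are control and orange points acrylamide arrays, black triangles are the 9 elastic fibre genes and bars are medians of the 42 members. The medians sit below 0 on every acrylamide female night array, only slightly (-0.06) on array 4. They are also below 0 on acrylamide male arrays 1, 2 and 4, and the morning acrylamide arrays fall on both sides of 0.

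The acrylamide arrays also varied more among themselves than their controls. The median SD of a member within a group was 0.20 in control and 0.32 in acrylamide night females. It was 0.26 and 0.43 in the male groups, and 0.22 and 0.61 in the morning groups. The same medians over all genes were 0.18 and 0.23, 0.25 and 0.39, and 0.25 and 0.45, so the wider spread was seen beyond the members as well. The largest SD in a group belonged to Fbln1 in both acrylamide night groups and to Vcan in acrylamide morning females. The fit takes 1 spread for each gene, pooled over the 6 groups. Its SEs and p-values therefore tend to understate the spread of the morning acrylamide arrays.

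Fibrillar collagens form the ropes of connective tissue. Col1a1, whose probe lies at chr10:83639260-83639319 (build rn4), encodes a chain of type I collagen. On the female night controls it read 6.74, 6.67, 6.80 and 6.17, and with acrylamide 5.90, 5.92, 6.13 and 6.54. Acrylamide arrays 1 to 3 were lower than every control and array 4 was in their range, for a difference of -0.47 ± 0.24 (SE). In males it read 6.42, 6.82, 6.21 and 6.61 without and 6.48, 6.04, 6.74 and 5.75 with acrylamide, which overlap. The morning levels were 6.49, 6.22, 5.97 and 6.42 without and 5.87, 5.65, 6.74 and 6.03 with acrylamide. These differences, -0.27 and -0.20 (SE 0.24 each), were within the spread, and a second Col1a1 probe gave 0.07 in the morning.

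Col3a1, the gene of type III collagen, which mixes with type I in soft tissue, followed the same arrays. Its female night levels were 6.53, 6.76, 6.63 and 6.41 in controls and 5.99, 5.87, 6.00 and 6.56 with acrylamide, a difference of -0.48 ± 0.21 (limma adjusted p = 0.9999). Again arrays 1 to 3 were below all controls and array 4 was not. Males read 6.24, 6.70, 6.58 and 6.40 without and 6.16, 6.69, 6.39 and 6.50 with acrylamide. In the morning the levels were 6.19, 6.25, 6.07 and 6.40 against 6.02, 5.57, 6.72 and 5.67, with acrylamide array 3 the highest of the 8. All 5 fibrillar collagens were below 0 at night in both sexes, with medians of -0.47 in females and -0.27 in males, and none passed the test. In the morning Col5a1 and Col5a2, which start and limit the width of fibrils, were above 0 at 0.55 and 0.14, and Col1a1 and Col3a1 were below it. The scanner ceiling limits these morning values: Col1a2 was saturated on all 8 morning arrays and Col1a1 on 2, so no morning difference is read for Col1a2.

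The other collagens link fibrils to their surroundings: type VI forms beaded filaments round cells, types XII and XIV sit on fibril surfaces, and type XV borders basement membranes. In females at night 5 of the 6 were below 0 with a median of -0.30, and in males 5 of 6 with -0.25. Col6a1 was the one whose female night groups did not overlap, by the narrow margin given above, at -0.31 ± 0.17. Col6a3 was the 1 of the 6 above 0 in females at night, at 0.08 ± 0.41, a value within its error. Its levels there were -3.29, -3.81, -3.04 and -3.16 without and -3.17, -2.90, -3.39 and -3.52 with acrylamide, a full overlap, and the mean over both of its probes was -0.27. In the morning Col12a1 had the largest value of this group, 0.72 ± 0.30, but another probe of it gave -0.08.

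Small leucine-rich proteoglycans coat collagen fibrils and set their spacing. Ogn (osteoglycin; probe at chr17:20987215-20987274, rn4) had the largest shortfall of any member in females at night. Its controls read 2.15, 2.37, 2.57 and 1.79, and the acrylamide arrays 1.14, 1.63, 0.98 and 1.36. The groups did not overlap, and the difference was -0.94 ± 0.29, a 1.92-fold lower mean, with a limma adjusted p of 0.9999. Males gave 0.97, 2.28, 1.39 and 1.56 without and 0.81, 2.05, 1.54 and 1.27 with acrylamide, nearly the same range. In the morning the levels were 1.65, 1.70, 0.98 and 1.34 without and 1.80, 1.55, 2.58 and 1.65 with acrylamide, higher by 0.48 ± 0.29. The test of the change in effect from night to morning gave 1.42 ± 0.41 (adjusted p = 0.2247), which did not pass.

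Dcn (decorin), the standard fibroblast proteoglycan, read 4.75, 5.10, 4.92 and 4.25 in female night controls and 3.74, 4.43, 4.27 and 4.71 with acrylamide. Male levels were 4.25, 4.98, 4.77 and 4.22 without and 4.03, 4.33, 4.41 and 3.71 with acrylamide. Morning levels were 4.54, 4.59, 4.66 and 4.41 without and 5.22, 4.29, 5.21 and 4.13 with acrylamide. The 4 morning acrylamide arrays thus formed a high pair (1 and 3) and a low pair (2 and 4) round a tight control group, and the mean difference of 0.16 ± 0.27 describes neither pair.

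Prelp, which anchors basement membranes to collagen, went against the other proteoglycans. Its morning controls read 1.82, 1.94, 1.64 and 1.80 and the acrylamide arrays -0.16, 1.05, 1.21 and 1.48, so every acrylamide array was lower. The difference was -0.90 ± 0.24 (limma adjusted p = 0.05284), just outside the threshold. That SE is pooled over all groups, while the SD was 0.12 in these controls and 0.72 in these acrylamide arrays. Under the alternatives the limma adjusted p ran from 0.0417 to 0.383. The lowest value belongs to array 1, where the thyroid markers were lowest too. Over the 2 morning slides it was -0.67 and -1.13, and without acrylamide arrays 1 and 2 it was -0.45. At night Prelp was level: 2.48, 2.29, 2.57 and 2.31 against 2.54, 2.77, 2.35 and 2.15 in females, and 1.96, 2.21, 2.28 and 2.12 against 2.30, 1.98, 2.61 and 2.41 in males. Fmod (fibromodulin) was the highest of the 42 in females at night at 0.18 ± 0.30, with 2.54, 2.64, 3.02 and 2.69 against 3.47, 2.79, 2.74 and 2.59. That value rested on acrylamide array 1, and without it the difference was -0.02. In males Fmod read 2.21, 2.58, 2.60 and 2.28 without and 2.18, 2.64, 2.52 and 2.97 with acrylamide (0.16 ± 0.30). In all, 6 of the 7 proteoglycans were above 0 in the morning, with a median of 0.17, and none passed.

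Among the glycoproteins, Fn1 (fibronectin) is the scaffold on which cells assemble collagen. Its male levels were 2.08, 2.24, 2.34 and 2.31 without and 1.95, 1.72, 1.98 and 1.08 with acrylamide. Every acrylamide array was lower, array 4 most, for a difference of -0.56 ± 0.30 (limma adjusted p = 0.3909). In females at night the levels were 2.52, 2.48, 2.78 and 2.27 against 1.56, 1.81, 2.12 and 2.90, and acrylamide array 4 was the highest of all 8. The 4 morning controls, 2.69, 2.65, 2.71 and 2.70, were nearly identical, while the acrylamide arrays read 3.77, 2.64, 3.79 and 2.29. Arrays 1 and 3 were thus more than 1 log2 unit above the controls. Without them, a subset chosen after seeing the data, the difference was -0.23 in place of 0.43. A second Fn1 probe gave 0.08 in the morning, -1.07 in males and -0.35 in females at night.

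Tnc (tenascin-C), a glycoprotein of remodelling and developing matrix, was the only member not well above background on every array, and gave the largest male and morning differences on the scale used here. Those values depend on the background correction: with normexp they were -0.37 in males, smaller than that of Fbln1 (-1.19), and 0.32 in the morning, smaller than that of Thbs2 (0.56). Its male controls read -5.12, -5.32, -5.87 and -5.53, all well above background. With acrylamide it read -5.74, -8.31, -7.13 and -8.48, and only array 1 was well above background. The difference was -1.96 ± 0.64 (limma adjusted p = 0.3528). In the morning the controls read -7.13, -7.91, -6.07 and -3.73, with array 4 alone well above background, and the acrylamide arrays -3.25, -3.92, -3.86 and -4.54, all 4 well above it. That gave 2.32 ± 0.64 (limma adjusted p = 0.05824). Control array 4 overlapped the acrylamide group, and it was alone among controls in its cartilage markers (9 genes), at -0.95 against -4.14 to -3.71 on the others. Acrylamide arrays read -2.73, -1.25, -0.63 and -3.20 for that list, all above the 3 other controls. The 7 chondrocyte and tendon markers separated the morning groups fully, at -1.07 to -0.84 with acrylamide against -1.71 to -1.10 in controls. In males that list separated the groups the other way, as given above, and Tnc and Thbs2 had the same signs. The part of either list in the Tnc and Thbs2 differences was not tested. Within slide 3 Tnc differed by 3.15 and within slide 4, which holds control array 4, by -0.16. In females at night the levels were -5.99, -6.19, -6.29 and -6.18 without and -6.21, -7.01, -5.57 and -6.23 with acrylamide, well above background on 1 control and 3 acrylamide arrays. In the male and morning comparisons only the higher group met the filter on dim probes, and the lower one had 1 array well above background. The sizes and p-values of both Tnc differences thus rest on values at background, and no change is read from them.

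Thbs2 (thrombospondin 2; probe at chr1:53589151-53589210, rn4), a matricellular protein that limits vessel growth and tunes fibril assembly, had its low and high values on many of the same arrays. In the morning it read -2.94, -3.19, -3.23 and -2.46 in controls and -1.45, -2.45, -2.07 and -1.88 with acrylamide. The groups stood apart by a narrow margin, and the difference was 0.99 ± 0.29, a 1.99-fold higher mean (limma adjusted p = 0.06601). It was of like size within both slides, 0.86 and 0.79, and 0.56 with normexp. In males the levels were -1.93, -1.60, -1.73 and -1.61 without and -2.27, -2.66, -1.85 and -3.29 with acrylamide, -0.80 ± 0.29. In females at night they were -1.56, -1.55, -1.55 and -2.40 without and -2.81, -2.14, -2.11 and -1.80 with acrylamide. Control array 4 was far below its group there. All 7 members of the glycoprotein group, which also holds Postn, Sparc, Dpt and Vcan, were below 0 at night in each sex, with medians of -0.41 and -0.57, and 5 were above 0 in the morning.

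**Figure D3:**
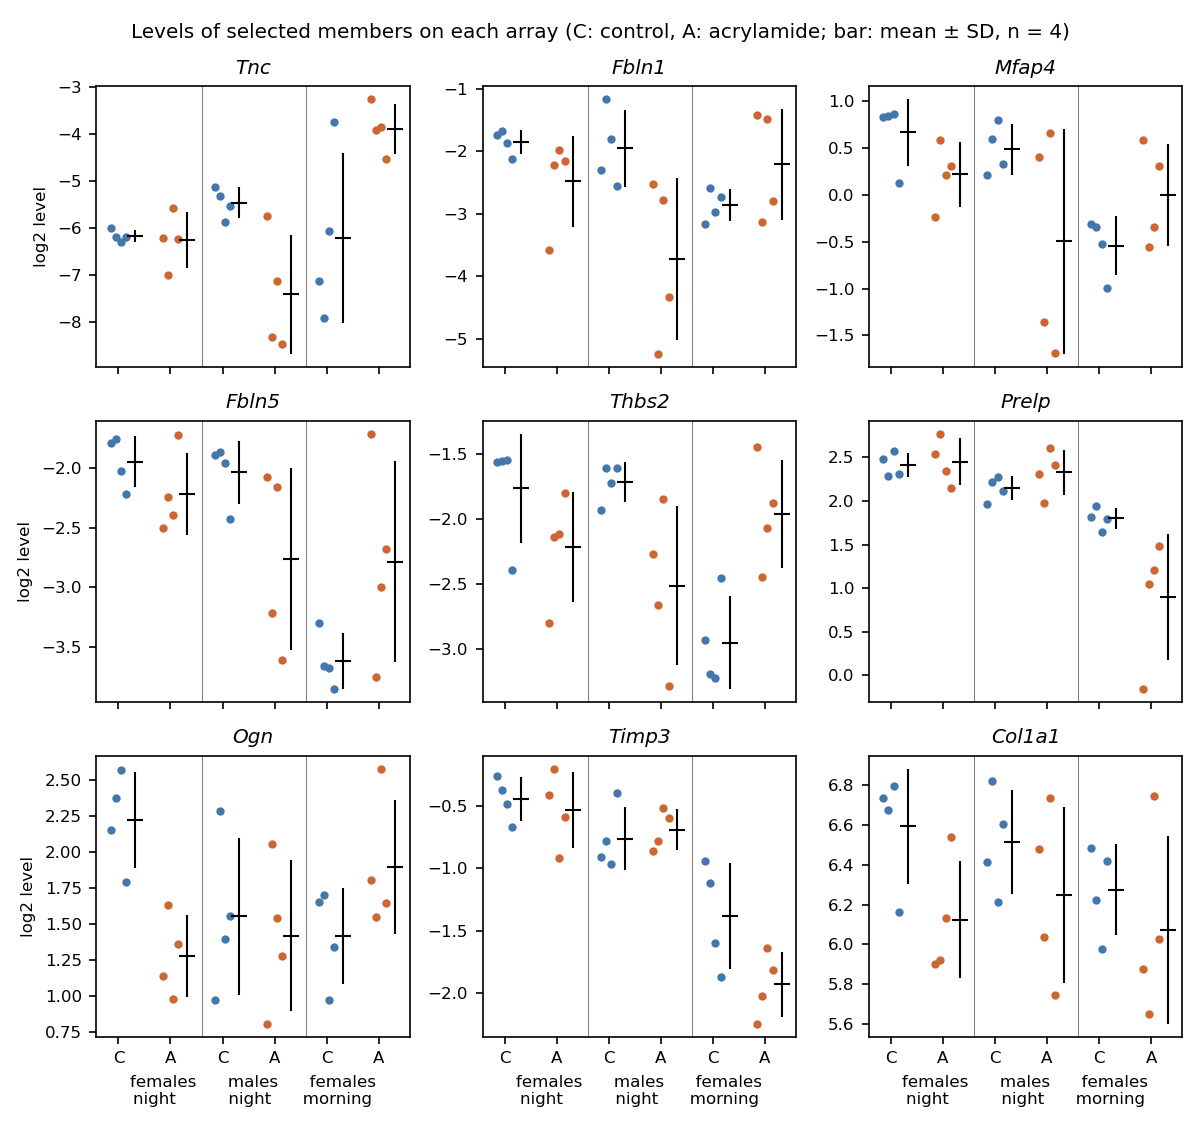
Log2 level (vertical axes) of 9 members on each array, by group; C is control (blue) and A acrylamide (orange), each point is 1 array and the bar is the group's mean ± SD, n = 4. Tnc, Fbln1, Mfap4, Fbln5 and Thbs2 have their lowest acrylamide male values on arrays 2 and 4, Ogn separates the female night groups, and Timp3 and Fbln5 are lower in morning than in night controls.

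Elastic fibre genes, each by its brightest probe, had 1 sign in each stratum. All 9 genes were below 0 in females at night (median -0.45), all 9 were below 0 in males (median -0.79), and all 9 were above 0 in the morning (median 0.65), with 0, 7 and 2 of them at an unadjusted p under 0.05 and none past the adjusted threshold. Of all genes 1.89%, 13.6% and 23.9% had such a p, so the morning count is near that background, and 44.3%, 49.5% and 59.6% were below 0. The fibrillar collagens and the glycoproteins also had all their members below 0 in both night strata. The male shortfall lay on arrays 2 and 4, where the group's median deviation from controls was -1.35 and -1.58, against -0.30 and 0.00 on arrays 1 and 3. Those are the arrays with the lowest smooth muscle and pericyte markers, 0.10 and -0.01 against 0.54 to 0.84 in controls. Without them the median was -0.11, with 8 of 9 below 0, but that subset was chosen after seeing the data and leaves out the lowest arrays. In the morning the median deviation was 1.46 and 0.68 on arrays 1 and 3, -0.19 on array 2 and 0.20 on array 4. Without arrays 1 and 3 the morning median was 0.01, with 4 of the 9 below 0. That subset too was chosen after seeing the data, and it leaves out the highest arrays. Smooth muscle markers were highest on array 1 at 1.36, against 0.26 to 0.80 in controls, and their part in the result was not tested.

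Fbln1 (fibulin-1, which binds elastin and fibronectin; probe at chr7:123286906-123286965, rn4) had the largest shortfall of the group. Its male controls read -2.30, -1.16, -1.80 and -2.55 and the acrylamide arrays -2.52, -5.24, -2.77 and -4.33. Arrays 2 and 4 were far below the controls and array 1 was inside their range, for -1.77 ± 0.51, a 3.4-fold lower mean (limma adjusted p = 0.3528), or -0.70 without arrays 2 and 4. In females at night it read -1.74, -1.67, -1.87 and -2.12 without and -3.58, -2.22, -1.97 and -2.16 with acrylamide, where array 1 accounts for most of the -0.63 ± 0.51. Mfap4, a microfibril-associated protein, showed the same male pair: 0.21, 0.60, 0.80 and 0.33 in controls and 0.41, -1.36, 0.66 and -1.69 with acrylamide. Its arrays 1 and 3 were inside the control range, and the difference of -0.98 ± 0.40 became 0.05 without arrays 2 and 4. For both genes that subset was chosen after seeing the data and leaves out the lowest arrays.

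Fbn1 (fibrillin-1), the backbone of microfibrils, read 0.82, 0.57, 0.85 and 0.41 in female night controls and -0.44, -0.26, 0.22 and 0.62 with acrylamide. Acrylamide arrays 1 to 3 were below every control, and the difference was -0.63 ± 0.41. Fbln5 (fibulin-5), which tethers elastin to cells, was among the 3 largest positive morning differences, at 0.84 ± 0.35 (limma adjusted p = 0.1566), or 0.34 with normexp. The controls there read -3.30, -3.67, -3.68 and -3.85 and the acrylamide arrays -1.71, -3.76, -3.0 and -2.68. Arrays 1, 3 and 4 were above all controls and array 2 was among them. Without array 1, where the thyroid markers were lowest, the Fbln5 difference was 0.48, and without array 2 it was 1.16. The cross-linking enzymes Lox and Loxl1 gave -0.69 ± 0.31 and -0.79 ± 0.37 in males and 0.24 ± 0.31 and 0.81 ± 0.37 in the morning. Eln, elastin itself, gave -0.10 ± 0.45 in males, the smallest of the 9, although its second probe gave -0.49. In females at night that second probe gave 0.002, against -0.43 for the main one, so the shared sign there depends on the probe.

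**Figure D4:**
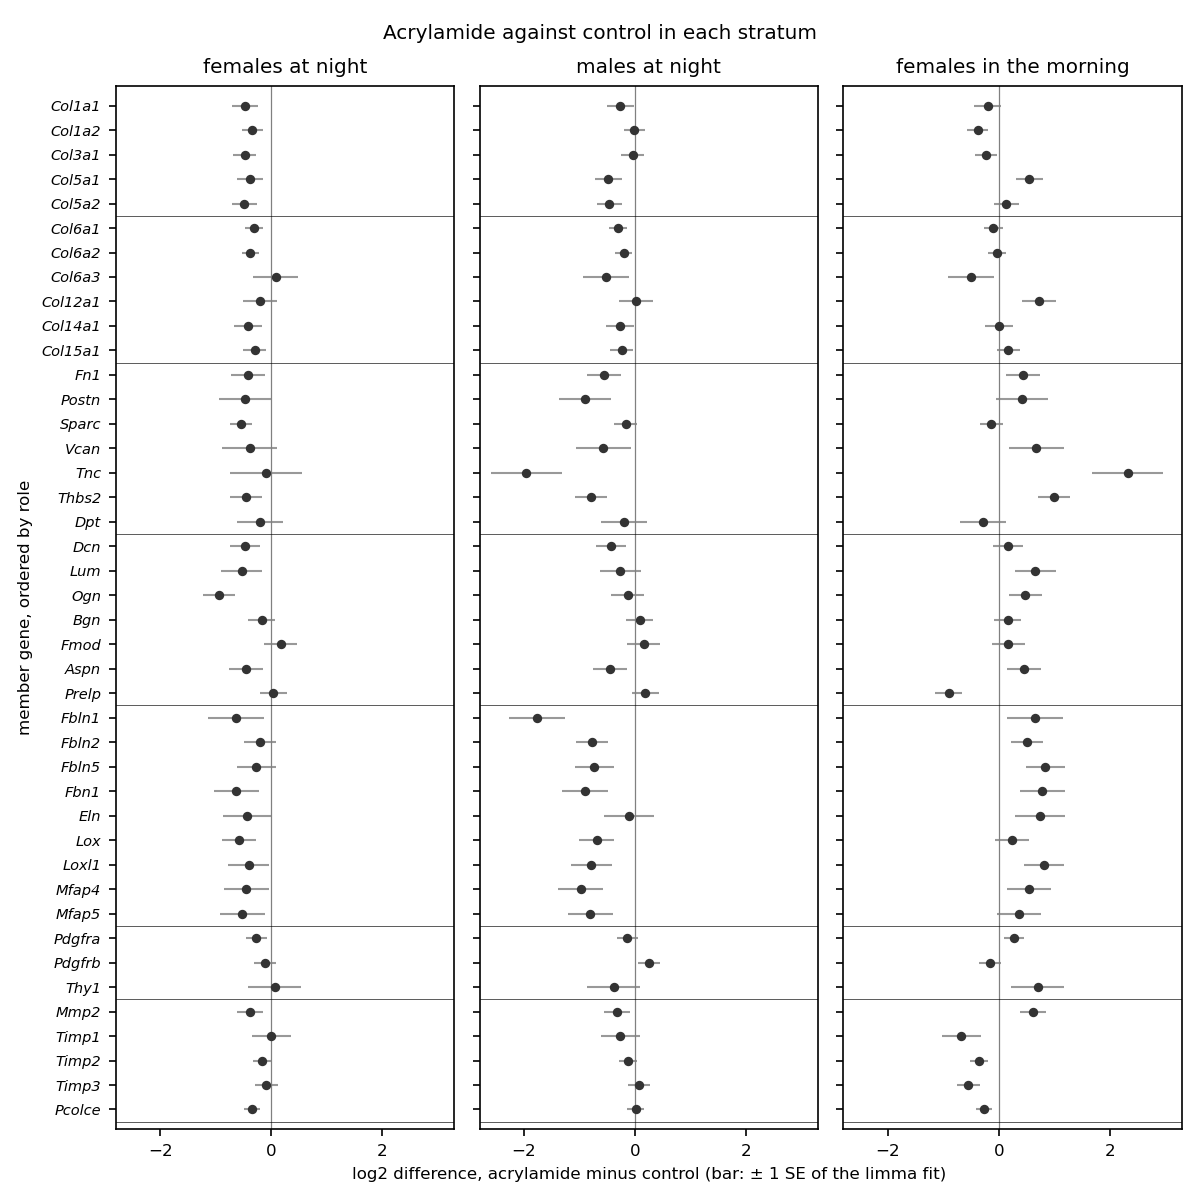
Log2 difference, acrylamide minus control (horizontal axes), of each member in the 3 strata, with bars of 1 SE from the limma fit, n = 4 against 4; lines separate the role groups. The elastic fibre block lies left of 0 in both night panels and right of 0 in the morning, and Tnc is the farthest point in the male and morning panels.

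The processing group holds an enhancer of procollagen cleavage (Pcolce), a gelatinase (Mmp2) and its tissue inhibitors (Timp1, Timp2, Timp3). In the morning the means of the inhibitors were lower and that of the protease higher with acrylamide, none past the test: Timp1 -0.68 ± 0.35, Timp3 -0.55 ± 0.20, Timp2 -0.35 ± 0.16 and Mmp2 0.62 ± 0.23, with limma adjusted p-values of 0.2397, 0.1159, 0.191 and 0.123. Timp1 read 0.98, 1.03, 1.27 and 1.00 without and 0.94, -0.34, 0.92 and 0.05 with acrylamide. Its groups did not overlap, though arrays 1 and 3 missed the lowest control by little. Timp3 read -0.94, -1.12, -1.60 and -1.87 without and -2.25, -2.02, -1.64 and -1.82 with acrylamide, an overlap. Mmp2 read 2.48, 2.47, 2.44 and 2.56 without and 3.66, 2.5, 3.63 and 2.63 with acrylamide, so that arrays 1 and 3 carried the difference. Timp1 was farthest below its controls on the other arrays, 2 and 4. At night the 5 genes had medians of -0.16 in females and -0.13 in males.

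None of the 3 surface markers passed the test or had groups that stood apart. Pdgfra, the growth factor receptor most used to mark fibroblasts, read 0.90, 0.94, 0.92 and 0.65 in female night controls and 0.46, 0.41, 0.52 and 0.96 with acrylamide, and in males 0.44, 0.85, 0.76 and 0.51 against 0.51, 0.65, 0.44 and 0.40. In the morning it read 0.36, 0.60, 0.68 and 0.61 without and 1.37, 0.30, 1.1 and 0.56 with acrylamide, again with arrays 1 and 3 high. Its differences were -0.27, -0.14 and 0.27, with an SE of 0.19 each. Pdgfrb, the related receptor that pericytes also carry, had the highest male value of the 42, at 0.25 ± 0.20. It read 0.05, 0.27, 0.08 and 0.04 without and 0.26, 0.68, -0.31 and 0.81 with acrylamide, with both high values on arrays 2 and 4. Thy1, which fibroblasts share with T cells, read -3.57, -3.04, -3.38 and -3.49 without and -4.25, -3.26, -2.52 and -3.18 with acrylamide in females at night (0.07 ± 0.48). In the morning its value on acrylamide array 2, -0.65, stood far above the other 3 (-3.47 to -3.16), on the array with the high T cell markers.

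Whether the acrylamide effect differed between strata was tested directly. Between morning and night in females the difference of effects was above 0 for 33 of the 42 members and below 0 for 9, against 60.1% of all genes below 0, with a median of 0.63 against -0.13 for all genes. The morning arrays named above and the scan session enter this comparison, and their part in it was not tested. No member and none of the 20311 genes (0%) passed the limma test, and 12 members had an unadjusted p under 0.05, against 16.3% of genes. Thbs2 at 1.44 ± 0.41 and Ogn had the smallest adjusted p, 0.2247 each, and the 9 elastic fibre genes ran from 0.71 to 1.41. Between males and females at night the difference of effects was below 0 for 19 members, against 50.9% of genes, and the median was 0.01, no member (0% of genes) passed, and none had an unadjusted p under 0.05, against 2.2% of genes. Averaged over the 3 strata, 36 members were below 0, against 57.6% of genes, with a median of -0.20 against -0.03 for all genes. No member passed, against 0.00492% of genes, and 8 had an unadjusted p under 0.05, against 6.69%.

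In control females 11 members were higher at night than in the morning past the threshold, and none was lower. Over all genes 48.6% were called, 20.8% higher and 27.8% lower, so calls in this comparison are common and the members' share of higher calls, 11 of 42, is near that background. The 11 were Fbln5, Timp3, Thbs2, Mmp2, Loxl1, Pcolce, Mfap4, Col15a1, Ogn, Col6a1 and Prelp. Night and morning arrays were scanned in different sessions on different slides, and time of day and scan session cannot be told apart. Markers of other tissues also differed without overlap between these controls, night against morning. Higher at night were macrophages 0.20 to 0.52 against -0.48 to -0.04, parathyroid 3.68 to 4.14 against -0.72 to 2.49, C cells (5 genes) 2.77 to 3.03 against 1.28 to 2.44, and, narrowly, endothelium (10 genes) -0.20 to 0.03 against -0.61 to -0.21. Lower at night were cartilage -5.13 to -4.74 against -4.14 to -0.95 and T cells -4.80 to -3.36 against -3.28 to -2.13. The part of these lists in the result was not tested. Under other scalings 15 higher and 1 lower (quantile), 12 and 1 (normexp) or 20 and 0 (deposited values) members were called, while the median of all genes moved from 0.02 to 0.18, -0.26 and 0.28. Each of those sets held the same 11 genes. The difference was below 0 for 11 members, against 49.2% of genes, and 13 members had an unadjusted p under 0.05, against 54.2%. Leaving out 1 array gave 7 to 11 called members, with 7 when control night array 3 was left out.

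Fbln5 had the largest of these differences. It read -1.79, -1.75, -2.02 and -2.22 at night and -3.30, -3.67, -3.68 and -3.85 in the morning, a gap of over 1 log2 unit between the groups, and a mean 3.20-fold higher at night (1.68 ± 0.35, limma adjusted p = 0.0004533). With normexp it was 0.78 (adjusted p = 0.0134), and Fbln5 was called in every setting run. Timp3 read -0.26, -0.37, -0.48 and -0.67 at night and -0.94, -1.12, -1.60 and -1.87 in the morning (0.94 ± 0.20, adjusted p = 0.0005613). Thbs2 read -1.56, -1.55, -1.55 and -2.40 against -2.94, -3.19, -3.23 and -2.46 (1.19 ± 0.29, adjusted p = 0.001765), and with normexp the difference was 0.57 (adjusted p = 0.0443). In both genes the groups came apart, by a small margin for Thbs2, whose night array 4 was low.

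Mmp2, the gelatinase, read 3.5, 3.43, 3.62 and 3.18 at night and 2.48, 2.47, 2.44 and 2.56 in the morning (0.95 ± 0.23, adjusted p = 0.002056), and its second probe gave 1.71. Loxl1 read -0.04, -0.23, 0.04 and -0.51 against -1.42, -1.49, -1.33 and -1.75 (1.31 ± 0.37, adjusted p = 0.005494). Pcolce read 5.55, 5.63, 5.55 and 5.26 against 4.98, 4.93, 4.95 and 5.08 (0.52 ± 0.15, adjusted p = 0.005637). The 4 morning arrays of Mmp2 and Pcolce were packed closely. Among the 9 elastic fibre genes Fbln5, Loxl1 and Mfap4 were called higher at night, while Eln gave -1.02 ± 0.45 (adjusted p = 0.06562) and Lox -0.47 ± 0.31. None of the 5 fibrillar collagens passed, at 0.01 to 0.35, and of these Col1a1, Col1a2 and Col3a1 were near or at the morning ceiling. In all, 14 members did not overlap on the high side and 1, Lox, on the low side, against 26.7% and 30.2% of genes.

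**Figure D5:**
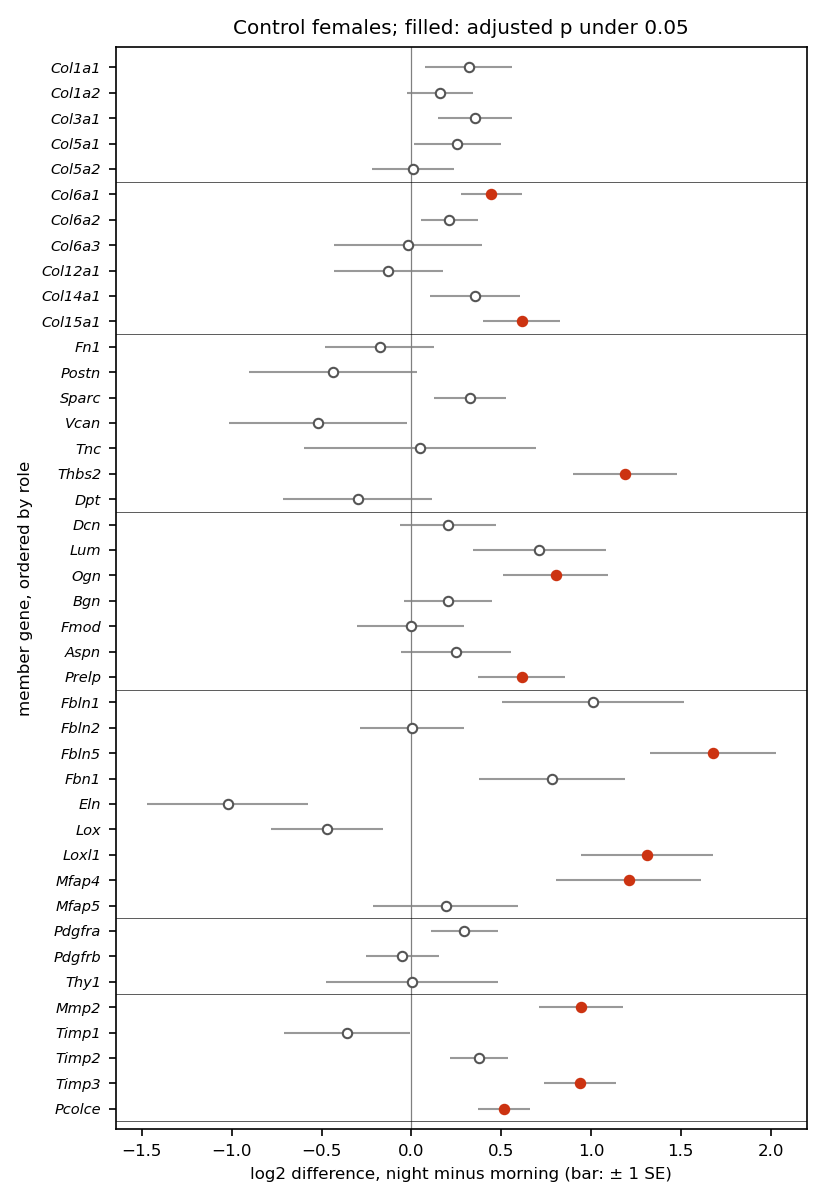
Log2 difference, night minus morning, of each member in control females (horizontal axis), with bars of 1 SE from the limma fit, n = 4 against 4; filled red points are the 11 members with an adjusted p under 0.05. All filled points lie right of 0, led by Fbln5, and Eln is the farthest open point to the left.

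Between control males and females at night no member was called, against 0.00985% of genes, 28 members were below 0, against 49.9% of genes, and the median was -0.08 against 0.00 for all genes. Each sex had a slide of its own, so sex and slide cannot be told apart in this comparison. One member, Ogn, had an unadjusted p under 0.05, against 1.63% of genes, at -0.67 ± 0.29 in males (limma adjusted p = 0.9999). All 7 proteoglycans were below 0, with a median of -0.27. Tnc was higher in every control male than in any control female (0.71 ± 0.64), which held for 2% of genes, but it was well above background on 1 of the 4 control female arrays. Prelp was lower in every control male, which held for 1.73% of genes.

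Genes that make, fold, anchor or degrade the matrix gave few acrylamide calls. In the night comparisons of both sexes none was called among 20 collagen synthesis enzymes and chaperones, 10 basement membrane genes, 12 proteases and inhibitors, 17 genes of the transforming growth factor beta pathway and 11 integrins and collagen receptors, where 0% of genes were called. In the morning females 2 fell, where 1.65% of genes were called lower: Tgfb2, a growth factor that drives matrix production (-0.80 ± 0.18, limma adjusted p = 0.03926), and Itga1, a collagen-binding integrin chain (-0.76 ± 0.14, limma adjusted p = 0.02101). Morning calls over all genes ran from 0 to 1123 under other processing and from 3 to 2131 without single arrays. Neither gene was followed there, so whether its call rests on acrylamide morning array 1 was not tested. Between night and morning controls 9, 4, 6, 6 and 4 genes of these lists were higher at night and 0, 0, 1, 1 and 1 lower, in list order, where 20.8% of all genes were called higher and 27.8% lower. The higher ones included Tgfb1 (1.64 ± 0.18), its latency partner Ltbp3 (1.62 ± 0.30), the protease gene Plau (1.71 ± 0.41) and the laminin chain Lama5 (1.09 ± 0.15). The lower ones were Mmp14, which activates Mmp2 (-1.03 ± 0.21), Inhba (-0.73 ± 0.30) and Itga2 (-1.32 ± 0.46).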

How the data were processed

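Total RNA of 24 thyroid gland samples was hybridised to rat 1-colour arrays, 1 sample an array. Per the file headers the authors' spot intensity values were made with Agilent Feature Extraction 10.1.1.1 (build rn4), whose processed signal has background removed and is not normalized between arrays. The deposited table of log2 values equals the log2 processed signal centred on each array's median. Control spots and outlier spots were dropped, spots of a probe averaged, the signal put on the log2 scale and each array's 75th percentile subtracted. Probes well above background on at least 3 arrays of a group were kept (23436 of 30367), and the probe with the highest mean stood for a gene. Group means of all 24 arrays were fitted with limma 3.58.1 in R 4.3.3 for 8 comparisons, with Benjamini-Hochberg adjusted p under 0.05 over 20311 genes, after the fit was tested on simulated data. The simulated data gave a gene the same spread in every group, so they do not test the fit for the uneven spread of these groups. All 42 members may be named; array values are given for those called (at most 6 a comparison), the 3 highest and 3 lowest in each acrylamide comparison, and 5 fixed examples. Counts of members are descriptions: no test was run over the list. The members and lists were chosen with earlier results of these data known. Same-numbered arrays did not pair (correlations of -0.23 to 0.36 over 12 pairs), so no block was used. Probe positions are those of the array annotation, and exons or other features at them were not assigned. The alternatives were other normalizations, background corrections, filters, probe rules, covariates and array subsets.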

Additional observations from a re-analysis of the deposited data

Results flagged for a closer look

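In 12 of the 138 groups of 4 arrays that were checked for the 22 members given array by array and for the median of all members, 1 array lay far from the other 3. For independent, normally distributed values chance alone gives such a gap in about 1 of 20 groups (0.05). The groups checked here reuse the same 24 arrays, so the 12 does not measure an excess over that rate. In the control females at night the arrays far from the others were array 4 for Mfap4 (0.13, nearest other 0.83), Thbs2 (-2.40, nearest -1.56) and Pdgfra (0.65, nearest 0.90), and array 1 for Pdgfrb (0.42, nearest 0.04). In the control males at night they were array 2 for Thy1 (-3.69, nearest -3.30) and Pdgfrb (0.27, nearest 0.08), and array 4 for Col6a3 (-2.15, nearest -3.22) and Fbln5 (-2.42, nearest -1.96). Fmod read 3.5 on control morning array 4 (nearest 2.56). Among acrylamide arrays, Fbln1 read -3.58 on female night array 1 (nearest -2.22), Thy1 -0.65 on morning array 2 (nearest -3.16) and Pcolce 4.95 on morning array 3 (nearest 4.65).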

How the results depend on the processing

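No alternative gave a called member in females at night, males at night, the 3-strata mean, the differences of effects or males against females (0 in each, leaving out single arrays included). In females in the morning, 2 members were called with quantile normalization (Tnc, Thbs2), 1 when probes had to be well above background on all 24 arrays (Prelp) and 3 with muscle and fat covariates (Prelp, Tnc, Thbs2), and leaving out single arrays gave 0 to 4; the cause was not tested. Over all genes the morning acrylamide count was 422, and 957 (quantile), 222 (normexp), 12 (deposited values), 98 (no filter), 0 (those arrays alone), 29 (array weights), 86 (slide as a term), 1123 (covariates) and 94 (without arrays 1 and 3), with 3 to 2131 when single arrays were left out. Night against morning gave 9873 genes, and 7407 to 14471 under the alternatives. In the other comparisons, males at night went from 0 to 5 at most (normexp) or 8 without acrylamide array 3, the 3-strata mean from 1 to between 0 and 5, or 28 without acrylamide morning array 4, and males against females from 2 to 39 with array weights. The difference of effects between morning and night gave 290 genes without that same morning array. Night against morning gave 20 called members with the deposited values and with array weights, 17 in the fit of those arrays alone, and 7 to 11 without single arrays, with 7 when control night array 3 was left out. Fbln5, Loxl1, Mmp2, Timp3, Thbs2 and Pcolce were called in all 21 settings. The split of calls over all genes moved with the scaling: 20.4% of morning acrylamide calls were higher, against 35.3% (quantile), 8.11% (normexp) and 33.3% (deposited values), and 42.8% of night calls, against 55.9%, 28.5% and 57.4%.

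Differences that were not called turned sign as follows. In males at night these were Col3a1 (0.13) and Pdgfra (0.055) with the deposited values, and Fmod (-0.10), Pdgfrb (-0.075) and Col1a1 (0.10) with the covariates. Without male arrays 2 and 4, a subset chosen after seeing the data, they were Mfap4 (0.049), Fmod (-0.069), Pdgfrb (-0.13) and Col1a1 (0.092). In females at night Col6a3 was -0.27 over the mean of its probes. In the morning Col1a1 was 0.11 without acrylamide arrays 1 and 2, and Dcn, Fn1 and Pdgfra were -0.34, -0.23 and -0.13 without arrays 1 and 3, subsets chosen after seeing the data. Leaving out single arrays gave -0.081 to 0.18 for Col6a3, -0.016 to 0.28 for Fmod and -0.19 to 0.38 for Thy1 in females at night, -0.13 to 0.047 for Col3a1 in males and -0.0078 to 0.35 for Dcn in the morning.

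The replicate block left every count of called members as it was, with 11 at night; its members' medians were -0.38, -0.29 and 0.25, and in 2 of 12 cases an array correlated best with its own number. Signal over background limits Tnc, and the scanner ceiling limits the morning values of Col1a2 and Col1a1.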
